A study of Mus musculus with 13 samples.

Results

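Organoids that had lost Apc through a Cre expressed from Lgr5, the receptor gene of crypt-base stem cells, were compared with wild type (WT) organoids across all genes of the count tables. The comparison held the 4 libraries titled ISC-Cre_ApcNull_Organoid and WT_Organoid, 2 of each, out of 13 libraries in the series. Of the 24054 genes in the tables, 14208 passed a filter on low counts and were tested. The ISC-Cre mice carried Lgr5eGFP-CreERT2, Apcfl/fl and Rosa26tdTomato. The WT mice are labelled WT alone, with no Cre, floxed allele or reporter named. Mice of both groups were adult and received tamoxifen in 2 doses of 1 mg, so the drug is shared by the controls. Crypts labelled ileal were grown as organoids, which are closed epithelial cultures with stem and differentiated cells, and whole organoids were taken for polyA RNA. The time point is labelled 10 dpi. The sample labels place these 10 days before plating and the design text places them after it, and the age of the cultures cannot be read from them.

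Several features limit these groups as models. The Lgr5 cassette is a knock-in that disrupts the copy it sits in, so Apc loss and the driver allele cannot be told apart for Lgr5. Of the groups compared, ISC-Cre alone is labelled with a Cre and a reporter. A further group described last, Sec-Cre, carries another Cre driver with the same reporter, and its Lgr5 level is given there. Cre acts in Lgr5-expressing cells only, so unrecombined crypts could have entered the cultures, and their share was not measured. The extraction protocol that all samples share names the duodenum, and gives TrypLE for samples called Lgr5_ApcKO and collagenase for the others. Whether the ISC-Cre organoids belong to that first kind is not stated, so dissociation and group cannot be told apart. The sources used here do not give the culture medium. No label says that replicates came from separate animals. The ISC-Cre replicates differed in sex-linked genes, as given below, so they cannot both have come from the same animal. The WT replicates did not differ in this way, which leaves their source open. The p-values measure the spread between these libraries, which may be partly technical.

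Apc is the scaffold of a cytoplasmic complex that marks beta-catenin for degradation. Without it, beta-catenin accumulates, enters the nucleus and joins TCF/LEF proteins at DNA, so that Wnt target genes are transcribed without ligand. In the intestinal crypt this programme keeps stem cells and Paneth cells in place, and it fades as cells move up to become absorptive enterocytes or secretory goblet, enteroendocrine and tuft cells. Many of its targets are themselves inhibitors of Wnt signalling, and Apc is the gene most often lost at the start of intestinal tumours.

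Gene counts were 20915624 and 17869369 in the ISC-Cre libraries and 13631423 and 21306261 in the WT libraries. Genes with at least 1 count numbered 15942 and 16076 in ISC-Cre and 14253 and 14587 in WT libraries. Levels are given in CPM, which are counts scaled to a common library size, with replicate 1 before replicate 2. The ISC-Cre libraries did not match in sex. Xist, the RNA of the inactive X chromosome, was at 1074 and 0.105 CPM in ISC-Cre replicates 1 and 2 and at 0.243 and 0.304 CPM in WT organoids. The Y-linked gene Ddx3y was at 0 and 64.4 CPM in ISC-Cre organoids, with 70.5 and 53 CPM in WT organoids, and Eif2s3y, Kdm5d and Uty had no count in ISC-Cre replicate 1 alone. ISC-Cre replicate 1 was therefore the only library with a female pattern, and counts of changed genes are given with and without it. On a first principal component with 82.2% of the variance both ISC-Cre libraries lay apart from both WT libraries, and the second, with 6.68%, set the WT replicates apart from each other.

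Fold changes are log2 values, ISC-Cre minus WT, with standard errors, from edgeR's quasi-likelihood test with Benjamini-Hochberg adjustment over all 14208 genes. Genes are said to have risen or fallen where the adjusted p was under 0.05. By this test 2749 genes rose, 19.3% of those tested, and 2628 fell, 18.5%. Fitted changes of 32-fold or more numbered 680 rises (4.79%) and 205 falls (1.44%). For genes without a count in 1 group the fitted size depends on the prior count, so these numbers depend on it too. The median log2 fold change over all genes was 0.03. Of the tested genes 527 had no count in either WT library, of which 468 rose, and 58 had none in either ISC-Cre library, of which 56 fell. Without ISC-Cre replicate 1, 1622 genes rose and 1572 fell, and without ISC-Cre replicate 2 the numbers were 1796 and 1604. A gene that passed the filter through ISC-Cre or WT levels alone had to differ, so the counts per gene list below describe the measured members and do not rank the lists. For every gene named below as risen or fallen, both ISC-Cre libraries lay on the same side of both WT libraries, as they did above WT for 35.6% and below WT for 33% of all tested genes. Counts of 1 or 2 members in a list often moved by 1 member when a library was left out, and larger moves are given beside the counts.

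**Figure D1:**
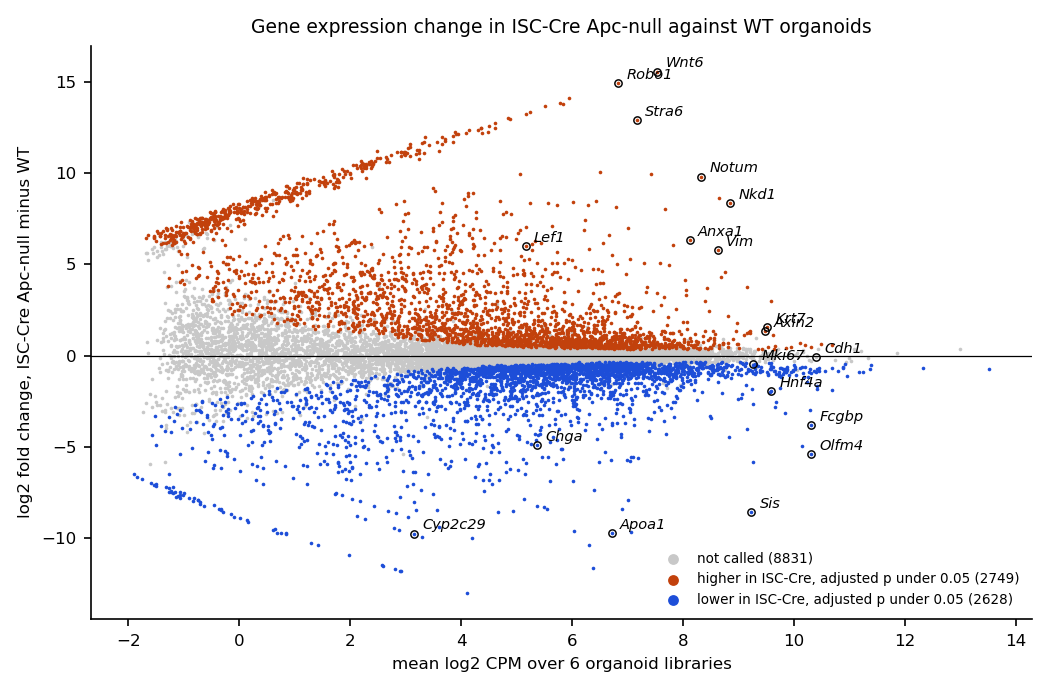
Log2 fold change (ISC-Cre Apc-null minus WT organoids) against mean log2 CPM over the 6 organoid libraries for the 14208 genes tested, 1 point per gene. The 2749 genes that rose reach further from 0 than the 2628 that fell, and the oblique edges of the cloud are genes without a count in 1 group, whose fitted change depends on the prior count.

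The 10 largest rises among well expressed genes were Wnt6, Robo1, Irx5, Cdh13, Ptn, Wnt10a, Serpinb11, Sox17, Prex2 and Stra6. Robo1, a receptor of Slit guidance proteins, was at 258 and 139.9 CPM in ISC-Cre organoids, against 0 and 0 CPM in WT organoids, at least 2174-fold higher. Ptn, the heparin-binding growth factor pleiotrophin, was at 96.3 and 84.7 CPM in ISC-Cre organoids, against 0 and 0 CPM in WT organoids. Stra6, the membrane receptor through which cells take up retinol, had 294 and 274 CPM in ISC-Cre organoids and 0 and 0.0506 CPM in WT organoids. Of these 10 genes, 9 had no count in either WT library and Stra6 had a single one. The 10 largest falls were Alpi, Fabp1, Cyp2c29, Apoa1, Btnl1, Apoc3, Ces1f, Sis, Slc30a10 and Tcf23, most of them genes of absorptive enterocytes. Btnl1, a butyrophilin-like molecule that holds intraepithelial lymphocytes in the gut, was at 0.0908 and 0 CPM in ISC-Cre organoids, against 35.5 and 38 CPM in WT organoids. Ces1f, a carboxylesterase, was at 0.363 and 0 CPM in ISC-Cre organoids, against 103 and 50.5 CPM in WT organoids. Slc30a10, an exporter of manganese, was at 0 and 0.525 CPM in ISC-Cre organoids, against 151 and 32.8 CPM in WT organoids. The groups do not overlap for these 20 genes because the rule that picked them asked for that.

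Apc itself, on chromosome 18, was read at 215 and 269 CPM in ISC-Cre organoids and 180.3 and 159 CPM in WT organoids. These counts cover the whole gene while a floxed allele loses only a part, so they do not check the labels. Its fold change of 0.51 ± 0.15 passed the test (adjusted p = 0.0316), and did not without ISC-Cre replicate 2 (0.161), WT replicate 2 (0.103), Sec-Cre replicate 1 (0.0605) or Sec-Cre replicate 2 (0.0588). Ctnnb1, the gene of beta-catenin, was at 1921 and 1818 CPM in ISC-Cre organoids and 1128 and 1334 CPM in WT organoids (log2 fold change 0.60 ± 0.14, adjusted p = 0.0122), with an adjusted p of 0.0634 without ISC-Cre replicate 1. Axin2, a scaffold of the same complex and a standard reporter of Wnt activity, was at 888 and 902 CPM in ISC-Cre organoids, against 255 and 448 CPM in WT organoids (log2 fold change 1.35 ± 0.24). Axin2 was nearly equal in the ISC-Cre replicates, while the WT replicates lay further apart.

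Wnt ligands, the secreted proteins that start the signal, were mostly silent in WT organoids and present in ISC-Cre organoids. Of 13 measured ligands 8 rose and none fell, with a median log2 fold change of 6.01, or 4.42 with genes at 0 in WT set to their lower bound. The summed level of the list was 582 and 379.9 CPM in ISC-Cre organoids, against 21.7 and 23.9 CPM in WT organoids. Wnt6 (chr1:74771892-74785322, GRCm38) was at 389 and 221 CPM in ISC-Cre organoids, against 0 and 0 CPM in WT organoids, at least 3330.0-fold higher. Its neighbour Wnt10a (chr1:74791516-74804179), 6193 bases away, was at 92.3 and 69.9 CPM in ISC-Cre organoids, against 0 and 0 CPM in WT organoids, at least 877-fold higher. Wnt7b, at 36.6 and 34.2 CPM, and Wnt7a, at 6.4 and 6.04 CPM in ISC-Cre organoids, had no count in WT organoids either. Wnt10b was at 6.08 and 6.36 CPM in ISC-Cre organoids and 0 and 0.152 CPM in WT organoids, a ratio of 66.4 (95% counting interval 22.5 to 324). Wnt5b, a ligand of beta-catenin-independent signalling, was at 10.6 and 8.3 CPM in ISC-Cre organoids and 0.081 and 0.81 CPM in WT organoids. Wnt3, the ligand that Paneth cells supply to stem cells, did not pass the test at 22.4 and 18.3 CPM in ISC-Cre organoids and 16.4 and 20.2 CPM in WT organoids (adjusted p = 0.637). Wnt11 was low in both groups, at 1.41 and 1.16 CPM in ISC-Cre organoids and 0.405 and 0 CPM in WT organoids (adjusted p = 0.104). Bounds and intervals cover counting error only.

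Among 19 measured receptors and ligand-processing genes 6 rose and 2 fell, with a median log2 fold change of 0.27. The Frizzled receptors, which bind Wnt at the cell surface, moved in opposite directions. Fzd10 was at 33.5 and 28 CPM in ISC-Cre organoids and 0 and 0.405 CPM in WT organoids and Fzd3 at 34.9 and 36.7 CPM in ISC-Cre organoids and 2.03 and 4.2 CPM in WT organoids (log2 fold change 3.48 ± 0.37, adjusted p = 0.000511). Fzd6 was also higher, at 60.4 and 61.5 CPM in ISC-Cre organoids, against 10.5 and 21.3 CPM in WT organoids. Fzd5, the main Frizzled of the adult gut epithelium, fell to 29.4 and 29.4 CPM in ISC-Cre organoids, against 235 and 278 CPM in WT organoids (log2 fold change -3.13 ± 0.14, adjusted p = 2.27e-05). Levels of Fzd7, a Frizzled of stem cells, were 74.6 and 64 CPM in ISC-Cre organoids, with 88 and 93 CPM in WT organoids (adjusted p = 0.0552). The co-receptor Lrp6 was at 150.4 and 173 CPM in ISC-Cre organoids and 174 and 169 CPM in WT organoids (adjusted p = 0.626). Lgr4, a receptor for R-spondins, was at 294 and 284 CPM in ISC-Cre organoids and 273 and 337 CPM in WT organoids (adjusted p = 0.705). Lgr5, which carries the Cre cassette, was at 116 and 88.2 CPM in ISC-Cre organoids, against 237 and 257 CPM in WT organoids (log2 fold change -1.27 ± 0.34, adjusted p = 0.024), and the adjusted p was 0.0783 without ISC-Cre replicate 1, 0.151 without ISC-Cre replicate 2 and 0.0633 without WT replicate 2.

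Inhibitors of Wnt signalling rose in 10 of 14 measured cases and fell in 1, with a median log2 fold change of 4.59 (4.15 at the bound). Together they took up 2964 and 2441 CPM in ISC-Cre organoids, against 343 and 412 CPM in WT organoids. Nkd1, an intracellular antagonist that binds Dishevelled, was at 882 and 687 CPM in ISC-Cre organoids, against 1.13 and 3.39 CPM in WT organoids (log2 fold change 8.34 ± 0.44, adjusted p = 3.43e-05). Notum, an enzyme that removes the lipid from Wnt ligands, was at 709 and 439 CPM in ISC-Cre organoids, against 1.22 and 0.253 CPM in WT organoids, and is uncertain because 33% of its 31-base words occur in transcripts of other genes. Wif1, a secreted protein that binds Wnt directly, was at 74.6 and 58.5 CPM in ISC-Cre organoids and 0.081 and 0.0506 CPM in WT organoids, a ratio of 1078 (95% counting interval 298 to 8903). Dkk2, of the Dickkopf family that blocks the co-receptors, was at 151 and 124 CPM in ISC-Cre organoids, against 1.13 and 0 CPM in WT organoids. Dkk3 was at 112 and 79.1 CPM in ISC-Cre organoids, against 0 and 1.16 CPM in WT organoids. Apcdd1, a membrane-bound inhibitor, was at 310.3 and 359 CPM in ISC-Cre organoids, against 8.43 and 11.2 CPM in WT organoids (log2 fold change 5.08 ± 0.21, adjusted p = 2.27e-05). The paired ubiquitin ligases Znrf3 and Rnf43, which clear Frizzled from the surface, were already present in WT organoids and moved less, at 131 and 148 against 33.5 and 36.7 CPM for Znrf3 (log2 fold change 1.99 ± 0.14) and 462 and 428 against 217 and 232 CPM for Rnf43 (0.99 ± 0.12).

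Of 23 genes of the destruction complex and nuclear effectors 10 rose and none fell (median log2 fold change 0.40), and 6 rose without ISC-Cre replicate 1. Lef1, a DNA-binding partner of beta-catenin, was at 58.9 and 58.7 CPM in ISC-Cre organoids, against 1.22 and 0.709 CPM in WT organoids (log2 fold change 5.99 ± 0.38, adjusted p = 5.88e-05). Its relatives Tcf7, at 118 and 88.8 against 21.2 and 21.8 CPM in ISC-Cre against WT libraries (log2 fold change 2.27 ± 0.18), and Tcf7l1, at 12.8 and 9.03 against 0.648 and 0.557 CPM (4.17 ± 0.43), rose as well. Among 23 Wnt-responsive transcription factors and targets 12 rose and 4 fell (median 0.95), and 2 of them fell without ISC-Cre replicate 1. Prox1, a homeobox factor of intestinal adenomas, was at 438 and 368 CPM in ISC-Cre organoids, against 7.62 and 4.66 CPM in WT organoids (log2 fold change 6.07 ± 0.31, adjusted p = 3.03e-05). Tnfrsf19, also called Troy, a crypt receptor, was at 304 and 316 CPM in ISC-Cre organoids, against 6.97 and 12.5 CPM in WT organoids (log2 fold change 4.97 ± 0.27, adjusted p = 3.56e-05). Sp5, a zinc-finger factor that Wnt switches on directly, was at 197 and 135 CPM in ISC-Cre organoids, against 11.9 and 31.3 CPM in WT organoids (log2 fold change 2.92 ± 0.41, adjusted p = 0.00155). Cd44, a hyaluronan receptor, had levels of 222 and 296 CPM in ISC-Cre organoids and 91.5 and 129 CPM in WT organoids (log2 fold change 1.23 ± 0.21). Myc, a transcription factor gene often named as a Wnt target, did not pass the test at 179 and 194 CPM in ISC-Cre organoids and 196 and 215 CPM in WT organoids (adjusted p = 0.395), and neither did Sox9 at 296 and 228 CPM in ISC-Cre organoids and 138 and 227 CPM in WT organoids (adjusted p = 0.136). Cdx1, an intestinal homeobox gene on the list, fell to 101 and 115 CPM in ISC-Cre organoids, against 230.4 and 335 CPM in WT organoids. Ephb2, an Eph receptor on the list, fell to 130 and 162 CPM in ISC-Cre organoids, against 202 and 213 CPM in WT organoids (log2 fold change -0.51 ± 0.14, adjusted p = 0.0265). Mycn fell to 3.22 and 2.21 CPM in ISC-Cre organoids, against 11.4 and 17.8 CPM in WT organoids (log2 fold change -2.43 ± 0.72, adjusted p = 0.0329). Vegfa, given below, was the other that fell. Ephb2 and Mycn were not followed singly when libraries were left out, so their falls are less secure than those of genes that were.

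**Figure D2:**
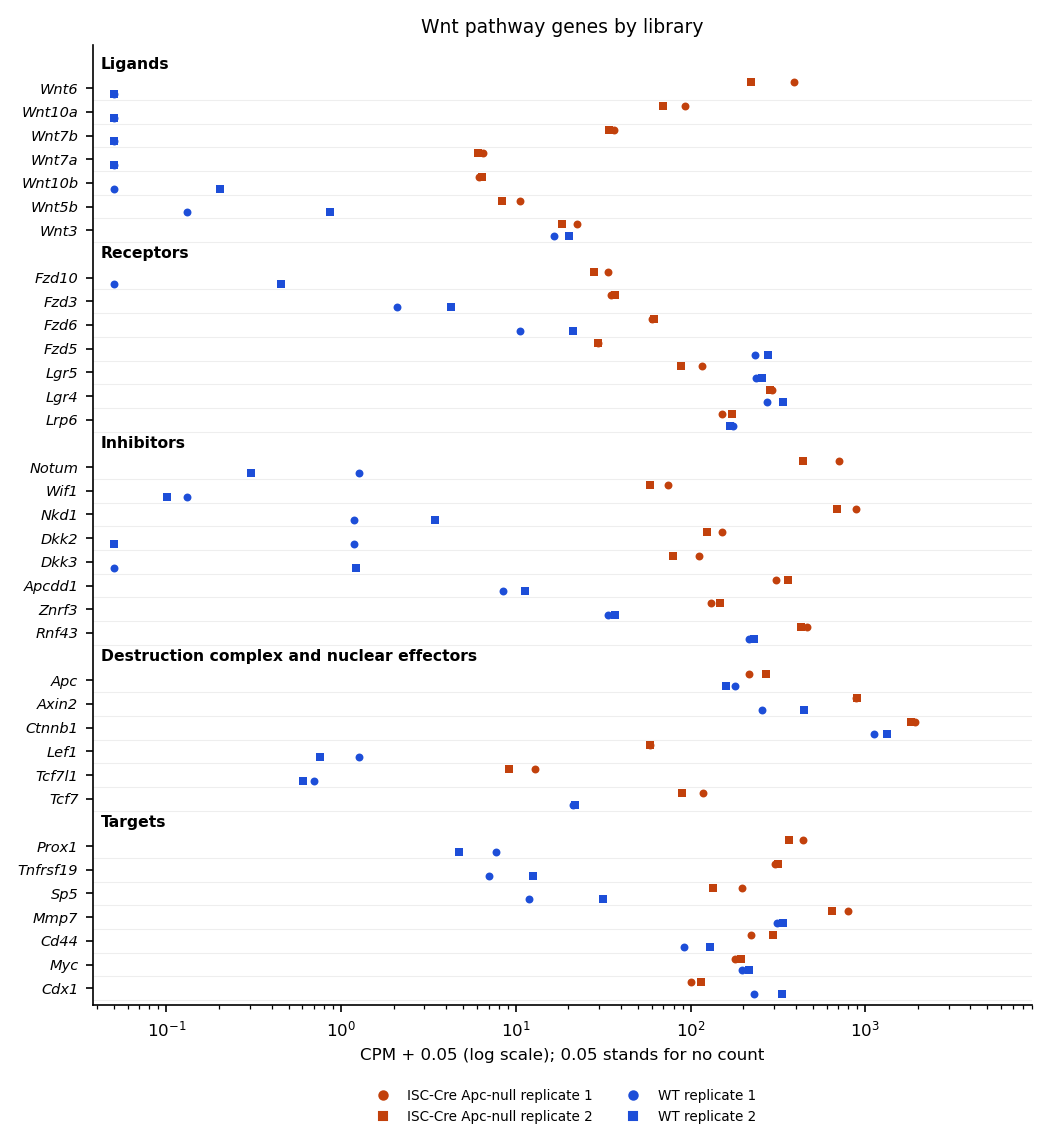
CPM (plus 0.05, log axis) of Wnt pathway genes in each library, with ISC-Cre Apc-null above WT for each gene and 1 symbol per replicate. Ligands such as Wnt6 and inhibitors such as Nkd1 lie far to the right in both ISC-Cre libraries, while Wnt3, Lrp6 and Myc lie close together and Fzd5 and Lgr5 lie lower in ISC-Cre.

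Promoters of Wnt genes that rose were searched for letters of TCF/LEF sites, which were CTTTGNT and CTTTGNA with A or T at N. Each motif was searched on both strands, and overlap with another motif was not considered. Of 40 genes of the ligand, inhibitor, effector and target lists that rose, 27 had an entry in the RefSeq promoter table (GRCm38.p6, from 250 bases before to 50 after the start), and 6 of these held a match. The table gives several starts for some genes, 21.7% of those that rose, 20.5% of those that fell and 20.1% of all, and a match at any start counted. The 4 with the smallest adjusted p are shown, 5′ to 3′ on the gene's strand with matches in capitals, because they show the letters in Wnt genes that rose. They are Tnfrsf19 (chr14:61037938-61038237, minus strand), Lef1 (chr3:131156044-131156343, plus strand), Sp5 (chr2:70474673-70474972, plus strand) and Mmp7 (chr9:7691840-7692139, plus strand). The Lef1 window is at an internal start, 45997 bases downstream of the first of 4 in the table, and the Tnfrsf19 window at the later of 2 starts, 8868 bases downstream of the first. Sp5 and Mmp7 are shown at their first start.
Tnfrsf19: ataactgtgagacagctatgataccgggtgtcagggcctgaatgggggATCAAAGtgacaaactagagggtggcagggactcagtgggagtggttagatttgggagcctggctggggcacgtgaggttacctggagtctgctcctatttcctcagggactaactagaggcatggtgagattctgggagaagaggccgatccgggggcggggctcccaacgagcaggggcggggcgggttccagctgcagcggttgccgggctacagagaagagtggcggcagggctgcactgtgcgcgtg
Lef1: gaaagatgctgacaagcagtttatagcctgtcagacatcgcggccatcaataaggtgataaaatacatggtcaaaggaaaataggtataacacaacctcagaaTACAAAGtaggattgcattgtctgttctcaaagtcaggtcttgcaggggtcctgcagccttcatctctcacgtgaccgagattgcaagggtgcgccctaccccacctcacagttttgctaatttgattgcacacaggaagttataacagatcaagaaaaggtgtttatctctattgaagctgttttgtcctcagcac
Sp5: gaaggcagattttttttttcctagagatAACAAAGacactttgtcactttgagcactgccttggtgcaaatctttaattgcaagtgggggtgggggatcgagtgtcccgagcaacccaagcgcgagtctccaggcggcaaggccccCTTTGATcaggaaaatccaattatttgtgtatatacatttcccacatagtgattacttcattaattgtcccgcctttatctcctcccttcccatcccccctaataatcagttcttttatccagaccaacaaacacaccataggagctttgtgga
Mmp7: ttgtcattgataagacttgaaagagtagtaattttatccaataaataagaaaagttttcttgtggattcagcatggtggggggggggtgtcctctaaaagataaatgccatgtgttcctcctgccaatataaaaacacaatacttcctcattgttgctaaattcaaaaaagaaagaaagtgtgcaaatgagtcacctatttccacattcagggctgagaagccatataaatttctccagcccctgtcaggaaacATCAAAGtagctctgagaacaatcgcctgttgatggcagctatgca

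Sp5 held 2 matches and each of the others held 1. Over all tested genes with an entry, 14.5% held such a match, against 15.9% of those that rose and 13.9% of those that fell. AP-1 letters (TGANTCA) stood in 7.90% of promoters of genes that rose, 8.43% of those that fell and 6.64% of all. For TEAD letters (GGAATG) the shares were 16.1%, 17.0% and 14.7%. HNF4 letters (AAGTCCA) stood in 3.57% of promoters of genes that rose, 5.92% of those that fell and 4.12% of all, and CDX letters (TTTATGG and TTTATTG) in 4.66%, 6.16% and 5.31%. These are letter matches in a short window and say nothing about binding.

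Crypt-base stem cell markers split, with 7 of 24 higher, 8 lower and a median log2 fold change of 0.04. Olfm4, a secreted glycoprotein of crypt-base columnar cells and a Notch target, fell to 123 and 48.7 CPM in ISC-Cre organoids, against 1848 and 5291 CPM in WT organoids (log2 fold change -5.37 ± 0.66, adjusted p = 0.000858). Aqp4, a water channel, fell to 20.4 and 12.3 CPM in ISC-Cre organoids, against 361 and 286 CPM in WT organoids (log2 fold change -4.30 ± 0.34, adjusted p = 0.000132). Slc14a1, a urea transporter of stem cell signatures, rose to 121 and 157 CPM in ISC-Cre organoids, against 9.97 and 7.75 CPM in WT organoids (log2 fold change 3.99 ± 0.20, adjusted p = 3.03e-05). Mex3a, which binds RNA and marks slow-cycling stem cells, was at 167 and 126 against 24.5 and 27.5 CPM in ISC-Cre against WT libraries (log2 fold change 2.50 ± 0.19). Smoc2, a matrix protein, was at 632 and 500.3 CPM in ISC-Cre organoids and 376 and 517 CPM in WT organoids (adjusted p = 0.216). Lrig1, a brake on ErbB receptors, was at 272 and 306 CPM in ISC-Cre organoids and 335 and 385 CPM in WT organoids (adjusted p = 0.103). Ascl2, the transcription factor that sets stem cell fate, rose by 0.85 ± 0.25 (adjusted p = 0.0312), with an adjusted p of 0.111 without ISC-Cre replicate 1 and 0.123 without ISC-Cre replicate 2. The count of falls was 4 without ISC-Cre replicate 2 and 4 without WT replicate 2.

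Genes of the fetal and regenerating epithelium, a state in which adult markers give way to those of the embryonic gut, rose in 20 of 24 measured cases and fell in 1 (median log2 fold change 4.34). The summed level of the list was 5822 and 4463 CPM in ISC-Cre organoids, against 899.9 and 998 CPM in WT organoids. Msln, mesothelin, was at 191 and 203 CPM in ISC-Cre organoids, against 1.46 and 1.57 CPM in WT organoids (log2 fold change 7.01 ± 0.18, adjusted p = 9.38e-06). Anxa1, an annexin, was at 391 and 488 CPM in ISC-Cre organoids, against 4.46 and 6.43 CPM in WT organoids (log2 fold change 6.31 ± 0.23, adjusted p = 2.15e-05). Clu, the chaperone clusterin that marks revival stem cells, was at 432 and 345 CPM in ISC-Cre organoids, against 14.3 and 63.2 CPM in WT organoids (log2 fold change 3.31 ± 0.61, adjusted p = 0.00486). Il33, an alarmin cytokine, had 89.6 and 70.3 CPM in ISC-Cre organoids and 0.486 and 0.101 CPM in WT organoids, and the matrix glycoprotein Fn1 had 1035 and 559 CPM in ISC-Cre organoids, with 0.162 and 3.39 CPM in WT organoids. Spp1 and Anxa8 had no count in WT organoids and were at least 241-fold and 211-fold higher. Ly6a, the antigen Sca-1, was at 158 and 258 CPM in ISC-Cre organoids, against 10.9 and 2.28 CPM in WT organoids and is uncertain, with 31.9% of its words shared with other genes.

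YAP and TEAD, the transcription pair that responds to cell shape and tissue injury, had 16 of 21 list members higher and 2 lower (median log2 fold change 2.59). Yap1 itself rose by 0.59 ± 0.13, at 260.4 and 257 CPM in ISC-Cre organoids and 160.1 and 183 CPM in WT organoids. Ctgf was at 59.4 and 72.4 CPM in ISC-Cre organoids, against 1.46 and 0.506 CPM in WT organoids (log2 fold change 6.18 ± 0.42, adjusted p = 7.58e-05). Cyr61, the other matricellular target, was at 66.3 and 52.8 CPM in ISC-Cre organoids, against 8.43 and 11.2 CPM in WT organoids (log2 fold change 2.59 ± 0.26, adjusted p = 0.000358). Ankrd1, a target with no count in WT organoids, was at 14.5 and 11.8 CPM in ISC-Cre organoids, at least 142-fold higher. Amotl1, an angiomotin that binds YAP, rose to 144 and 128 CPM in ISC-Cre organoids, against 3.4 and 1.57 CPM in WT organoids.

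Transcription factors of gut identity fell in 14 of 25 measured cases and rose in 3 (median log2 fold change -0.87). Cdx2, the factor that sets intestinal fate, was at 135 and 168 CPM in ISC-Cre organoids and 358 and 328 CPM in WT organoids (log2 fold change -1.18 ± 0.14, adjusted p = 0.000876). Hnf4a, a nuclear receptor that drives enterocyte genes, was at 353 and 397 CPM in ISC-Cre organoids, against 1408 and 1474 CPM in WT organoids (log2 fold change -1.94 ± 0.12, adjusted p = 6.05e-05), and its paralogue Hnf4g at 25.9 and 30.5 CPM in ISC-Cre organoids, against 132 and 138 CPM in WT organoids (log2 fold change -2.26 ± 0.17, adjusted p = 0.000116). Gata4, the factor of the proximal and middle small intestine, fell to 29.9 and 20.5 CPM in ISC-Cre organoids, against 96.2 and 97.5 CPM in WT organoids (log2 fold change -1.94 ± 0.34). Creb3l3, a factor of lipid-handling genes, had 0.182 and 0.21 CPM in ISC-Cre organoids and 25.5 and 27 CPM in WT organoids, and Nr5a2, LRH-1, had 4.63 and 4.88 CPM in ISC-Cre organoids, with 46 and 60.2 CPM in WT organoids. Prdm1, the repressor Blimp1 of the immature gut, rose by 3.0 ± 0.45. Cdx2 and Hnf4a remained readable in every ISC-Cre library.

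Gastric and foregut genes that passed the filter rose in 7 of 10 cases and fell in none, and 11 others did not pass it. Sox2, the foregut factor, had 14.8 and 8.4 CPM in ISC-Cre organoids and no count in WT organoids, at least 127-fold higher. Muc6, a mucin of gastric glands, and Ctse, the protease cathepsin E, had no WT count either, and were at least 156-fold and 147-fold higher. Sox21, a relative of Sox2, was at 202 and 162 CPM in ISC-Cre organoids, against 3.48 and 5.57 CPM in WT organoids (log2 fold change 5.30 ± 0.24, adjusted p = 2.39e-05). The gastric surface genes Gkn1, Tff1, Muc5ac and Cldn18 were among those under the filter. Gkn3 did pass the filter and lay lower, at 0.0908 and 0.893 CPM in ISC-Cre organoids and 2.51 and 6.68 CPM in WT organoids. Its log2 fold change of -3.25 ± 1.32 did not pass the test (adjusted p = 0.0912). The median of the measured members was 4.77 (3.96 at the bound).

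Hox genes, which give cells their position along the body axis, changed by cluster. Of 11 measured genes 7 rose, all of the HoxB cluster on chromosome 11, and 2 of the HoxA cluster fell, while 28 Hox genes were under the filter. Hoxb9 (chr11:96271457-96276595) was at 95.7 and 126 CPM in ISC-Cre organoids, against 9.32 and 2.13 CPM in WT organoids (log2 fold change 4.33 ± 0.60, adjusted p = 0.00142). Hoxb8 was at 63.7 and 84.1 CPM in ISC-Cre organoids, against 9.16 and 1.72 CPM in WT organoids (log2 fold change 3.82 ± 0.64, adjusted p = 0.0032). Hoxb6 was at 60.2 and 56.6 CPM in ISC-Cre organoids, against 7.45 and 3.14 CPM in WT organoids (log2 fold change 3.49 ± 0.41, adjusted p = 0.000705). Hoxb7 was at 26.6 and 26.1 CPM in ISC-Cre organoids, against 2.59 and 1.67 CPM in WT organoids (log2 fold change 3.65 ± 0.40, adjusted p = 0.000562). Hoxb5 rose by 3.59 ± 0.69, and Hoxb3 by 3.48 ± 0.32, where Hoxb3 is uncertain with 52.7% shared words. Hoxa3 fell to 0.227 and 0.105 CPM in ISC-Cre organoids, against 7.94 and 12.4 CPM in WT organoids, and is uncertain with 26% shared words. Sox and Iroquois factors rose in 10 of 14 measured cases with none lower (median 4.07, or 2.36 at the bound). Sox17, the factor of early endoderm, was at 74.1 and 49 CPM in ISC-Cre organoids, against 0 and 0 CPM in WT organoids, at least 668-fold higher. Irx5 was at 126 and 94.8 CPM in ISC-Cre organoids, against 0 and 0 CPM in WT organoids, at least 1195-fold higher, and Irx3, 555557 bases from it on chromosome 8, at 19.5 and 7.04 CPM in ISC-Cre organoids, against 0.405 and 0 CPM in WT organoids (log2 fold change 6.28 ± 1.07, adjusted p = 0.00356). Sox11 rose to 44.7 and 41.1 CPM in ISC-Cre organoids, against 0.081 and 0.76 CPM in WT organoids.

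**Figure D3:**
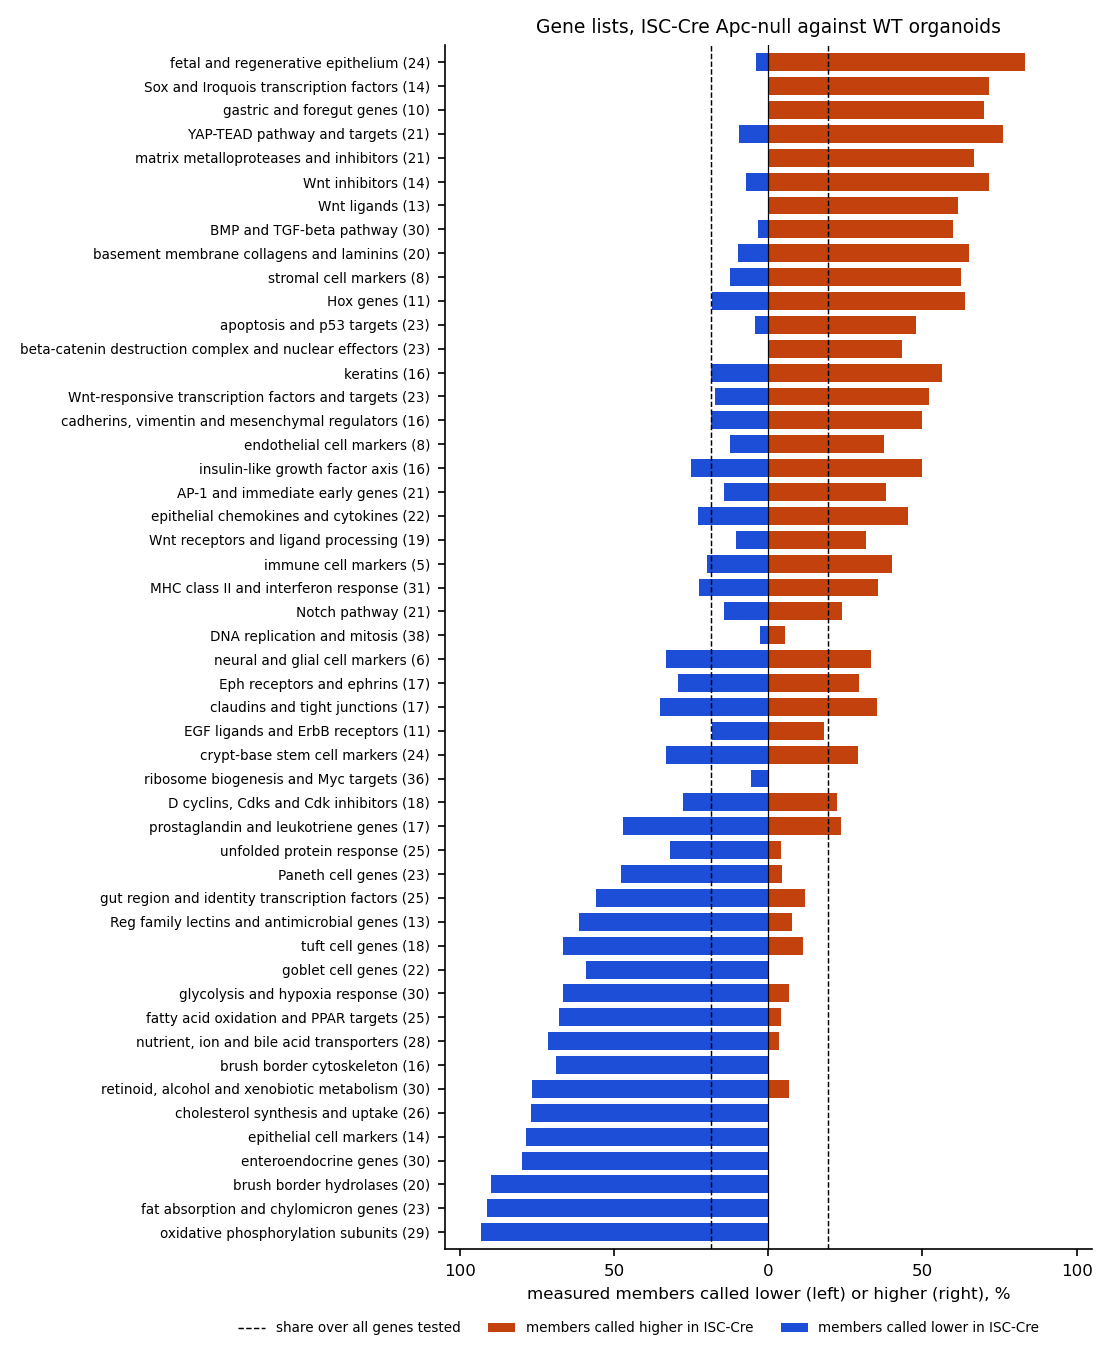
Percentage of measured members of each of 50 gene lists that fell (left) and rose (right) in ISC-Cre Apc-null against WT organoids, with the number measured in brackets and the shares over all genes, 18.5% and 19.3%, as dashed lines. Fetal, Sox and Iroquois, gastric and YAP-TEAD genes stand at the top, and fat absorption genes and oxidative phosphorylation subunits at the bottom.

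Genes of the absorptive enterocyte fell almost throughout. Brush border hydrolases, which finish digestion at the cell surface, fell in 18 of 20 measured cases with none higher (median log2 fold change -4.73), and their summed level was 406 and 392 CPM in ISC-Cre organoids, against 5575 and 4316 CPM in WT organoids. Sis, sucrase-isomaltase, was at 5.35 and 4.1 CPM in ISC-Cre organoids, against 2295 and 1282 CPM in WT organoids (log2 fold change -8.56 ± 0.37, adjusted p = 2.27e-05). Alpi, intestinal alkaline phosphatase, was at 0 and 0.105 CPM in ISC-Cre organoids, against 64 and 46.6 CPM in WT organoids, a ratio of WT to ISC-Cre of 1094 (95% counting interval 303 to 9045). Lct, lactase, was at 0.59 and 0.263 CPM in ISC-Cre organoids, against 13.5 and 13.9 CPM in WT organoids (log2 fold change -4.97 ± 0.61). Fat absorption and chylomicron genes fell in 21 of 23 cases with none higher (median -3.22). Apoa1, an apolipoprotein of chylomicrons, was at 0.454 and 0.263 CPM in ISC-Cre organoids, against 315 and 316 CPM in WT organoids (log2 fold change -9.73 ± 0.39, adjusted p = 2.15e-05). Fabp1, a fatty acid binding protein, was at 0 and 0.0525 CPM in ISC-Cre organoids, against 52.7 and 8.31 CPM in WT organoids, where the WT replicates lay far apart. Mttp, which loads lipid on Apob, was at 8.89 and 7.98 CPM in ISC-Cre organoids, against 466 and 329.7 CPM in WT organoids (log2 fold change -5.56 ± 0.25, adjusted p = 2.27e-05), and Apob itself at 28.1 and 24.3 CPM in ISC-Cre organoids, against 244 and 482 CPM in WT organoids (log2 fold change -3.79 ± 0.56, adjusted p = 0.00195). Npc1l1, the cholesterol importer, was at 1.5 and 1.58 against 325 and 171 CPM in ISC-Cre against WT libraries (log2 fold change -7.33 ± 0.41).

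Transporters of nutrients, ions and bile acids fell in 20 of 28 cases and rose in 1 (median log2 fold change -3.25). Slc5a1, the sodium-glucose transporter SGLT1, kept the highest share of its WT level among those named, at 63.3 and 74.1 CPM in ISC-Cre organoids, against 637 and 383 CPM in WT organoids (log2 fold change -2.89 ± 0.25, adjusted p = 0.000188). Slc2a2, the glucose exporter GLUT2, was at 0.771 and 0.0525 CPM in ISC-Cre organoids, against 21.2 and 8.61 CPM in WT organoids. Slc51a, a subunit of the bile acid exporter, was at 0.499 and 0.0525 CPM in ISC-Cre organoids, against 20.3 and 25.8 CPM in WT organoids. Slc15a1, the peptide transporter PEPT1, had no count in ISC-Cre organoids and 3.16 and 6.08 CPM in WT organoids, so that it was at least 67.8-fold lower. Brush border cytoskeleton genes fell in 11 of 16 cases with none higher, and by less (median -0.98). Vil1, the actin bundler villin, was at 327 and 321 CPM in ISC-Cre organoids, against 607 and 708 CPM in WT organoids (log2 fold change -1.02 ± 0.13, adjusted p = 0.00107). Myo1a, a brush border myosin, was at 49.8 and 48.9 CPM in ISC-Cre organoids, against 435 and 408 CPM in WT organoids (log2 fold change -3.09 ± 0.12, adjusted p = 2.15e-05). Cdhr5, a microvillus protocadherin, was at 56.1 and 51.8 CPM in ISC-Cre organoids, against 198 and 234 CPM in WT organoids. Krt20, the keratin of shed enterocytes, fell to 3.49 and 1.94 CPM in ISC-Cre organoids, against 139.8 and 114 CPM in WT organoids (log2 fold change -5.53 ± 0.34, adjusted p = 5.64e-05).

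Of 23 measured Paneth cell genes 11 fell and 1 rose (median log2 fold change -1.16), with 7 lower and 3 higher without ISC-Cre replicate 2. Mmp7, the protease that activates defensins, was the member that rose, at 801 and 643 CPM in ISC-Cre organoids, against 314 and 338 CPM in WT organoids (log2 fold change 1.15 ± 0.19, adjusted p = 0.00283). Pla2g2a, a secreted phospholipase, was at 287 and 220.5 CPM in ISC-Cre organoids, against 2316 and 2148 CPM in WT organoids (log2 fold change -3.14 ± 0.25, adjusted p = 0.000136). Spink4 was at 74.1 and 80.3 CPM in ISC-Cre organoids, against 502 and 523 CPM in WT organoids (log2 fold change -2.73 ± 0.20, adjusted p = 0.000108). Lyz1, the Paneth lysozyme, was at 3784 and 2693 CPM in ISC-Cre organoids and 2461 and 2610.0 CPM in WT organoids (adjusted p = 0.208), uncertain with 34.2% shared words, and Ang4, an antimicrobial ribonuclease, was at 678 and 493 CPM in ISC-Cre organoids and 458 and 397 CPM in WT organoids (adjusted p = 0.0735). Goblet cell genes fell in 13 of 22 cases with none higher (median -1.52). Muc2, the main mucin, was at 61.8 and 34.4 CPM in ISC-Cre organoids, against 288 and 301 CPM in WT organoids (log2 fold change -2.61 ± 0.27, adjusted p = 0.000404). Fcgbp, a mucus protein, was at 300.0 and 171 CPM in ISC-Cre organoids, against 3200.1 and 3465 CPM in WT organoids (log2 fold change -3.82 ± 0.30, adjusted p = 0.000125). Tff3, trefoil factor 3, was at 247 and 159.8 CPM in ISC-Cre organoids, against 836 and 832 CPM in WT organoids (log2 fold change -2.04 ± 0.23, adjusted p = 0.000672). Zg16, a lectin of mature goblet cells, was at 0.726 and 0.0525 CPM in ISC-Cre organoids, against 114 and 134 CPM in WT organoids (log2 fold change -8.22 ± 0.69, adjusted p = 0.000173).

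Enteroendocrine genes fell in 24 of 30 measured cases with none higher (median log2 fold change -3.92), and the summed level was 234 and 106 CPM in ISC-Cre organoids, against 1367 and 1189 CPM in WT organoids. Chga, chromogranin A of hormone granules, was at 7.12 and 0.63 CPM in ISC-Cre organoids, against 111 and 125 CPM in WT organoids (log2 fold change -4.90 ± 0.81, adjusted p = 0.0031). Gcg, the proglucagon gene, was at 14 and 0.368 CPM in ISC-Cre organoids, against 314 and 249 CPM in WT organoids (log2 fold change -5.26 ± 1.10, adjusted p = 0.00837). Pyy, peptide YY, was at 0.0454 and 0.158 CPM in ISC-Cre organoids, against 28.7 and 16.8 CPM in WT organoids (log2 fold change -7.76 ± 0.61, adjusted p = 0.000129). For Chga and Gcg ISC-Cre replicate 1 lay well above replicate 2, and both lay below the WT libraries. Neurod1, a factor of the lineage, fell to 1.86 and 1.31 CPM in ISC-Cre organoids, against 7.37 and 15 CPM in WT organoids, and Tph1, the enzyme of serotonin synthesis, to 0.771 and 0.315 CPM, against 11.9 and 12.6 CPM. Neurog3, the factor that starts the lineage, was at 4.17 and 3.36 CPM in ISC-Cre organoids and 8.02 and 12.9 CPM in WT organoids (adjusted p = 0.0546). Tuft cell genes fell in 12 of 18 cases and rose in 2 (median -2.76). Dclk1, a kinase that marks tuft cells, was at 2.13 and 0.893 CPM in ISC-Cre organoids, against 48.2 and 39.8 CPM in WT organoids (log2 fold change -4.84 ± 0.60, adjusted p = 0.000941). Pou2f3, their lineage factor, was at 2.36 and 1.31 CPM in ISC-Cre organoids, against 10.9 and 13.8 CPM in WT organoids (log2 fold change -2.75 ± 0.49, adjusted p = 0.00438) and the taste channel Trpm5 at 5.54 and 3.05 CPM in ISC-Cre organoids, against 28.8 and 29.9 CPM in WT organoids. Ptgs1, cyclooxygenase 1, was on the same list and rose, at 72.9 and 68.3 CPM in ISC-Cre organoids, against 1.46 and 4.71 CPM in WT organoids. In whole organoids, fewer cells of a type and less RNA per cell cannot be told apart.

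**Figure D4:**
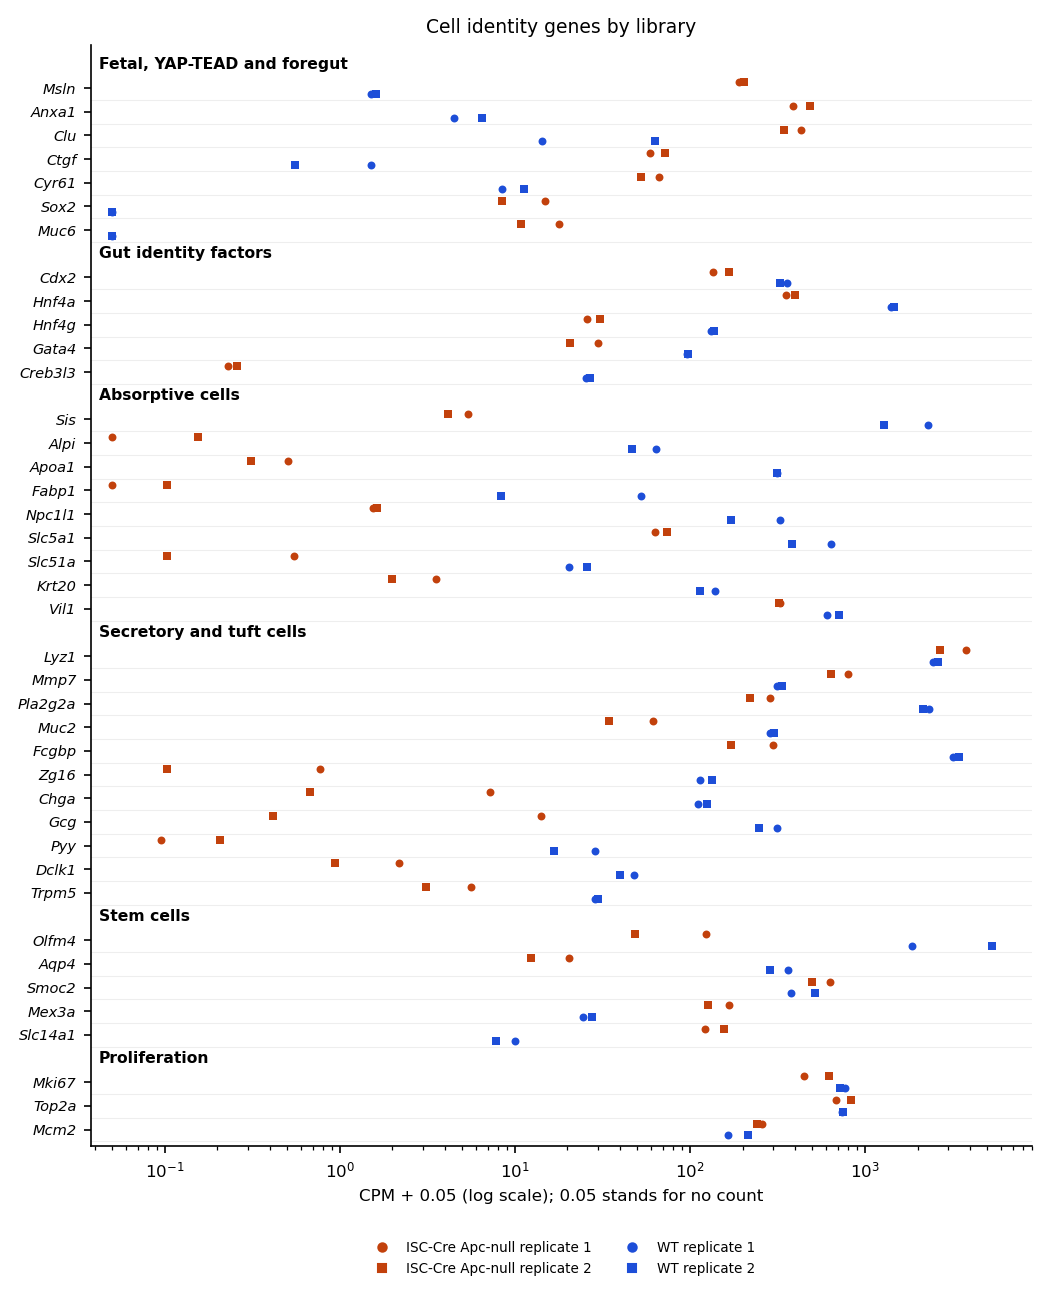
CPM (plus 0.05, log axis) of cell identity genes in each library, with ISC-Cre Apc-null above WT for each gene and 1 symbol per replicate. Fetal genes lie to the right and enterocyte, goblet, enteroendocrine and tuft genes to the left in ISC-Cre organoids, while Lyz1, Smoc2, Mki67, Top2a and Mcm2 lie close to WT.

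Notch signalling, which sends crypt cells to the absorptive fate, had 5 of 21 members higher and 3 lower, or 5 lower without WT replicate 1 (median log2 fold change 0.14). The Notch shares of 23.8% higher and 14.3% lower lay near those of all genes, 19.3% and 18.5%. Atoh1, the factor that Notch represses and that starts the secretory lineage, was at 25 and 19.7 CPM in ISC-Cre organoids, against 45.8 and 48.3 CPM in WT organoids (log2 fold change -1.07 ± 0.19, adjusted p = 0.00383). Notch3 was at 23.9 and 32.2 against 5.67 and 3.04 CPM in ISC-Cre against WT organoids, and Hes6 at 250.5 and 251 against 98.3 and 107 CPM, and both rose. Hes1, the main Notch target, was at 127 and 107 CPM in ISC-Cre organoids and 143 and 178 CPM in WT organoids (adjusted p = 0.0558). Notch1 was at 130.3 and 108 CPM in ISC-Cre organoids and 75.8 and 118 CPM in WT organoids (adjusted p = 0.339). The BMP and TGF-beta list, whose signals oppose the crypt programme, had 18 of 30 members higher and 1 lower (median 0.94), or 11 higher without ISC-Cre replicate 2. The BMP target Id1 was at 137 and 116 CPM in ISC-Cre organoids, against 33.2 and 33.6 CPM in WT organoids (log2 fold change 1.92 ± 0.14, adjusted p = 9.22e-05). Id3 was at 148 and 172 CPM in ISC-Cre organoids, against 14.7 and 16.8 CPM in WT organoids (log2 fold change 3.34 ± 0.15, adjusted p = 2.33e-05) and the feedback inhibitor Smad7 at 34.4 and 40.2 CPM in ISC-Cre organoids, against 13 and 15.1 CPM in WT organoids (log2 fold change 1.41 ± 0.22, adjusted p = 0.00241). The ligands Tgfb2 and Tgfb3 were near 0 in WT organoids, at 0 and 0.253 CPM and 0 and 0.304 CPM, and reached 39.3 and 35.9 CPM and 25.8 and 21.7 CPM in ISC-Cre organoids. Bmp3, a ligand that antagonises BMP signalling, was the member that fell, at 3.27 and 3.2 CPM in ISC-Cre organoids, against 58.9 and 71.8 CPM in WT organoids.

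Of 11 EGF ligands and ErbB receptors 2 rose and 2 fell, or 4 fell without WT replicate 2, and the shares of 18.2% each way lay near those of all genes, 19.3% and 18.5% (median log2 fold change -0.69). Tgfa, a ligand of the EGF receptor, was at 114 and 112 CPM in ISC-Cre organoids, against 56.1 and 38.8 CPM in WT organoids (log2 fold change 1.25 ± 0.20, adjusted p = 0.0024), and the receptor Erbb3 at 128 and 119 CPM in ISC-Cre organoids, against 213 and 276 CPM in WT organoids (log2 fold change -0.98 ± 0.15, adjusted p = 0.00248). Egfr itself was at 51.2 and 52.1 CPM in ISC-Cre organoids and 42.5 and 51.8 CPM in WT organoids (adjusted p = 0.548). Insulin-like growth factor genes rose in 8 of 16 cases and fell in 4 (median 2.41, or 1.83 at the bound). None fell when ISC-Cre replicate 1, ISC-Cre replicate 2, Sec-Cre replicate 2 or WT replicate 1 was left out, and 1 fell without Sec-Cre replicate 1. H19, the imprinted RNA beside Igf2, was at 38.7 and 44.5 CPM in ISC-Cre organoids, against 0.405 and 0.304 CPM in WT organoids (log2 fold change 6.89 ± 0.47, adjusted p = 7.58e-05). Igfbp3, which binds the ligands, was at 24.4 and 18.6 CPM in ISC-Cre organoids, against 0.972 and 0.506 CPM in WT organoids (log2 fold change 4.91 ± 0.39, adjusted p = 0.000136). Igf1r was at 63.5 and 64.3 CPM in ISC-Cre organoids and 70.9 and 78.2 CPM in WT organoids (adjusted p = 0.521).

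Most proliferation genes did not pass the test. Of 38 genes of DNA replication and mitosis 2 rose, 1 fell and 35 did not pass the test, with a median log2 fold change of -0.01 and all values between -0.47 and 0.49. The summed level was 5865 and 6433 CPM in ISC-Cre organoids, against 6173 and 6525 CPM in WT organoids. Mki67, the Ki-67 antigen of cycling cells, was at 449 and 619.8 CPM in ISC-Cre organoids and 767 and 718 CPM in WT organoids (adjusted p = 0.0645). Top2a, topoisomerase 2 of mitotic cells, was at 685 and 830.1 CPM in ISC-Cre organoids and 741 and 749 CPM in WT organoids (adjusted p = 0.908). Mcm2, of the replicative helicase, was at 257 and 242 CPM in ISC-Cre organoids and 164 and 214 CPM in WT organoids (adjusted p = 0.0883). Mki67 did pass by DESeq2 (adjusted p = 0.0394) and Mcm2 as well (0.0445), at log2 fold changes of -0.46 and 0.42. Rises numbered 0 to 5 when single libraries were left out. Ribosome biogenesis and Myc targets had 34 of 36 members past no threshold and 2 lower (median -0.08), with 6 lower without WT replicate 1 and 3 higher without WT replicate 2. Ncl, nucleolin, was at 1030.2 and 1165 CPM in ISC-Cre organoids and 1127 and 1468 CPM in WT organoids (adjusted p = 0.262). D cyclins, Cdks and their inhibitors rose in 4 of 18 cases and fell in 5 (3 without ISC-Cre replicate 1 and 1 without ISC-Cre replicate 2). The shares on that list were 22.2% higher and 27.8% lower, against 19.3% and 18.5% over all genes. Cdkn2a, which encodes the cell cycle inhibitors p16 and p19Arf, was at 3.49 and 7.09 CPM in ISC-Cre organoids, against 0.081 and 0.506 CPM in WT organoids (log2 fold change 4.0 ± 0.72, adjusted p = 0.00449). Cyclin D1, Ccnd1, was at 761 and 761 CPM in ISC-Cre organoids, against 314 and 283 CPM in WT organoids, uncertain with 22.3% shared words, and Cdkn1c, the inhibitor p57, at 173 and 91 CPM in ISC-Cre organoids, against 4.29 and 5.87 CPM in WT organoids, uncertain with 27.2%. Cdkn1a, the inhibitor p21, was at 245 and 265 CPM in ISC-Cre organoids and 321 and 153 CPM in WT organoids (adjusted p = 0.81), and its ISC-Cre values lay between the WT values.

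Apoptosis genes and p53 targets rose in 11 of 23 cases and fell in 1 (median log2 fold change 0.44), or in 7 cases without ISC-Cre replicate 1. Trp53inp1, a p53 target of the stress response, was at 266 and 323 CPM in ISC-Cre organoids, against 43.8 and 41.4 CPM in WT organoids (log2 fold change 2.79 ± 0.14, adjusted p = 3.03e-05). Mdm2, the ligase that degrades p53, was at 127 and 168 CPM in ISC-Cre organoids, against 63 and 55.8 CPM in WT organoids (log2 fold change 1.31 ± 0.16, adjusted p = 0.000973). Bcl2l1, the survival protein Bcl-xL, was at 208 and 156 CPM in ISC-Cre organoids, against 40.5 and 39.4 CPM in WT organoids (log2 fold change 2.19 ± 0.16, adjusted p = 0.000109). Phlda3 and Eda2r, both p53 targets, rose by 2.09 ± 0.28 and 2.50 ± 0.38.

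Genes of energy and lipid metabolism mostly fell at the RNA level. Oxidative phosphorylation subunits fell in 27 of 29 cases with none higher (median log2 fold change -0.87, range -2.57 to -0.15). Atp5a1, of the ATP synthase, was at 1042 and 1051 CPM in ISC-Cre organoids, against 1920.1 and 1903 CPM in WT organoids (log2 fold change -0.87 ± 0.11, adjusted p = 0.00109). Cox4i1, of cytochrome oxidase, was at 309 and 296 CPM in ISC-Cre organoids, against 515 and 532 CPM in WT organoids (log2 fold change -0.79 ± 0.11, adjusted p = 0.00163). Sdhb, of succinate dehydrogenase, was at 94 and 78.2 CPM in ISC-Cre organoids, against 204 and 156 CPM in WT organoids (log2 fold change -1.06 ± 0.17, adjusted p = 0.00281). Ndufa4 was 1 of the 2 that did not pass, at 176 and 134 CPM in ISC-Cre organoids and 152 and 193 CPM in WT organoids (adjusted p = 0.529). Fatty acid oxidation and PPAR targets fell in 17 of 25 cases and rose in 1 (median -1.16). Ppara, the receptor that drives them, was at 2.95 and 1.84 CPM in ISC-Cre organoids, against 40.4 and 41.1 CPM in WT organoids (log2 fold change -4.08 ± 0.30, adjusted p = 9.67e-05). Hadh, an oxidation enzyme, was at 107 and 93.4 CPM in ISC-Cre organoids, against 539 and 454 CPM in WT organoids (log2 fold change -2.31 ± 0.15, adjusted p = 6.76e-05). Cpt1a, which brings fatty acids into mitochondria, was at 52.6 and 60.1 CPM in ISC-Cre organoids, against 141 and 112 CPM in WT organoids (log2 fold change -1.16 ± 0.20, adjusted p = 0.00351). Pdk4, which blocks pyruvate oxidation, was the member that rose, at 19.4 and 24.5 CPM in ISC-Cre organoids, against 0.243 and 0.506 CPM in WT organoids.

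Cholesterol synthesis and uptake genes fell in 20 of 26 cases with none higher (median log2 fold change -1.03). Glycolysis and hypoxia genes fell in 20 of 30 cases and rose in 2 (median -1.61), or fell in 13 without ISC-Cre replicate 1. Ndrg1, a hypoxia-induced gene, was at 76.8 and 102 CPM in ISC-Cre organoids, against 1127 and 620.1 CPM in WT organoids (log2 fold change -3.29 ± 0.32, adjusted p = 0.000331). Vegfa, the vascular growth factor, was at 26.5 and 85.1 CPM in ISC-Cre organoids, against 357 and 195 CPM in WT organoids (log2 fold change -2.31 ± 0.53, adjusted p = 0.0122). For both, WT replicate 1 lay above replicate 2 and ISC-Cre replicate 1 below replicate 2. Hk2, Pkm and Slc2a1, common markers of glucose use, did not pass the test (adjusted p = 0.0561, 0.256 and 0.121), and Pkm shares 34.7% of its words with other genes. Retinoid, alcohol and xenobiotic genes fell in 23 of 30 cases and rose in 2 (median -4.01). Rbp2, the retinol-binding protein of enterocytes, was at 0.182 and 0.158 CPM in ISC-Cre organoids, against 21.9 and 45.1 CPM in WT organoids (log2 fold change -7.57 ± 0.54, adjusted p = 9.01e-05). Adh1, an alcohol dehydrogenase, was at 11.3 and 4.88 CPM in ISC-Cre organoids, against 131 and 112 CPM in WT organoids (log2 fold change -3.90 ± 0.40, adjusted p = 0.000422) and the drug-metabolising Cyp3a11 at 0.227 and 0.42 CPM in ISC-Cre organoids, against 6.16 and 30.7 CPM in WT organoids (log2 fold change -5.83 ± 0.88, adjusted p = 0.0021).

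Most measured genes of the basement membrane and of matrix proteolysis rose, and lists of junction genes held rises and falls. Basement membrane collagens and laminins rose in 13 of 20 measured cases and fell in 2 (median log2 fold change 1.56). Col4a1, of the collagen IV network, was at 62.7 and 110.0 CPM in ISC-Cre organoids, against 0.243 and 0.253 CPM in WT organoids (log2 fold change 8.40 ± 0.55, adjusted p = 6.82e-05). Col18a1, the source of endostatin, was at 201 and 105 CPM in ISC-Cre organoids, against 0.891 and 0.861 CPM in WT organoids (log2 fold change 7.44 ± 0.42, adjusted p = 3.93e-05), and the laminin chain Lama5 at 513 and 519 CPM in ISC-Cre organoids, against 57.8 and 23.1 CPM in WT organoids (log2 fold change 3.68 ± 0.38, adjusted p = 0.000444). Matrix metalloproteases and inhibitors rose in 14 of 21 cases with none lower (median 4.21, or 2.70 at the bound). Timp2, a protease inhibitor, was at 189 and 169.5 CPM in ISC-Cre organoids, against 3.4 and 4.3 CPM in WT organoids (log2 fold change 5.52 ± 0.21, adjusted p = 2.15e-05). Mmp11 was at 28.1 and 21.3 CPM in ISC-Cre organoids, against 0.162 and 0.203 CPM in WT organoids (log2 fold change 7.0 ± 0.36, adjusted p = 3.04e-05). Plau, urokinase, was at 16.2 and 13 CPM in ISC-Cre organoids, against 0 and 0.101 CPM in WT organoids, a ratio of 237 (95% counting interval 65.2 to 1959). Of cadherins, vimentin and mesenchymal regulators 8 of 16 rose and 3 fell (median 3.16, or 2.04 at the bound). Vim, vimentin, was at 599 and 779 CPM in ISC-Cre organoids, against 11.5 and 13.5 CPM in WT organoids (log2 fold change 5.78 ± 0.41, adjusted p = 8.8e-05), while Cdh1, E-cadherin, was at 1363 and 1267 CPM in ISC-Cre organoids and 1379 and 1382 CPM in WT organoids (adjusted p = 0.665). Cdh17, the intestinal cadherin, fell to 252 and 349 CPM in ISC-Cre organoids, against 1218 and 948 CPM in WT organoids (log2 fold change -1.85 ± 0.20, adjusted p = 0.000514). Snai2, a regulator of mesenchymal change, was at 0.136 and 0.473 CPM in ISC-Cre organoids and 0 and 0 CPM in WT organoids (adjusted p = 0.0673), and Zeb1 was under the filter.

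Keratins rose in 9 of 16 cases and fell in 3 (median log2 fold change 2.53, or 2.33 at the bound). Krt7, a keratin of ducts and fetal gut, was at 1143 and 822 CPM in ISC-Cre organoids, against 316 and 351 CPM in WT organoids (log2 fold change 1.56 ± 0.18, adjusted p = 0.000628). Krt23 was at 180.1 and 167 CPM in ISC-Cre organoids, against 49.4 and 32.6 CPM in WT organoids (log2 fold change 2.09 ± 0.23, adjusted p = 0.000552). Krt17, a keratin of stratified epithelium, had 38.5 and 13 CPM in ISC-Cre organoids and no WT count, at least 285-fold higher. Krt14, of basal cells, was at least 208-fold higher and is uncertain with 28.2% shared words. Claudins and tight junction genes rose in 6 of 17 cases (3 without ISC-Cre replicate 1) and fell in 6. Cldn4, a sealing claudin, was at 672 and 534 CPM in ISC-Cre organoids, against 170.4 and 101 CPM in WT organoids (log2 fold change 2.16 ± 0.25, adjusted p = 0.000706), and the pore-forming claudins of the gut fell, Cldn2 at 73.6 and 80.4 CPM in ISC-Cre organoids, against 377 and 299.6 CPM in WT organoids (log2 fold change -2.13 ± 0.17, adjusted p = 0.000135). Cldn15 was at 93.5 and 82.6 CPM in ISC-Cre organoids, against 573 and 467 CPM in WT organoids (log2 fold change -2.56 ± 0.16, adjusted p = 5.88e-05). Eph receptors and ephrins, which sort cells along the crypt, rose in 5 and fell in 5 of 17 cases (3 when either ISC-Cre library was left out). Efnb1, an ephrin of the villus side, was at 81.3 and 59.9 CPM in ISC-Cre organoids, against 131 and 122 CPM in WT organoids (log2 fold change -0.84 ± 0.17, adjusted p = 0.00717), and Ephb6 had 50.3 and 35.9 CPM in ISC-Cre organoids and no WT count. Ephb3 was at 112 and 107 CPM in ISC-Cre organoids and 78.3 and 141 CPM in WT organoids (adjusted p = 0.989), with a wide gap between the WT replicates.

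Genes of epithelial defence and inflammation were mixed. Reg family lectins and antimicrobial genes fell in 8 of 13 measured cases and rose in 1 (median log2 fold change -1.63). Lypd8, which holds bacteria off the colon surface, was at 37.3 and 47.1 CPM in ISC-Cre organoids, against 459 and 545 CPM in WT organoids (log2 fold change -3.57 ± 0.25, adjusted p = 9.01e-05). Duox2, a peroxide-making oxidase, was at 2.5 and 2.94 CPM in ISC-Cre organoids, against 61.9 and 55.1 CPM in WT organoids (log2 fold change -4.43 ± 0.34, adjusted p = 0.000123). Epithelial chemokines and cytokines rose in 10 of 22 cases and fell in 5, or 3 when either ISC-Cre library was left out (median 0.93). The shares on the chemokine list were 45.5% higher and 22.7% lower, the latter near the 18.5% over all genes. Ccl25, the chemokine that draws lymphocytes to the small intestine, was at 12.8 and 7.72 CPM in ISC-Cre organoids, against 257 and 228 CPM in WT organoids (log2 fold change -4.56 ± 0.28, adjusted p = 5.64e-05). Ccl28 was at 1.41 and 0.893 CPM in ISC-Cre organoids, against 95.8 and 78.8 CPM in WT organoids (log2 fold change -6.23 ± 0.30, adjusted p = 2.72e-05). Csf1, the macrophage growth factor, was at 49.2 and 29.9 CPM in ISC-Cre organoids, against 0.162 and 0.81 CPM in WT organoids (log2 fold change 6.17 ± 0.50, adjusted p = 0.000146), and Cxcl14 and Ccl2 had no WT count and were at least 135-fold and 48.4-fold higher. Of prostaglandin and leukotriene genes 4 of 17 rose (2 without ISC-Cre replicate 1) and 8 fell (4 without ISC-Cre replicate 1 and 5 without ISC-Cre replicate 2). The shares on that list were 23.5% higher and 47.1% lower, against 19.3% and 18.5% over all genes. Hpgd, which breaks prostaglandins down, fell to 7.03 and 14.3 CPM in ISC-Cre organoids, against 36.1 and 35.7 CPM in WT organoids (log2 fold change -1.75 ± 0.34, adjusted p = 0.00624).

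MHC class II and interferon genes gave a count that rested on single libraries, with 11 of 31 higher and 7 lower, but 3 higher without ISC-Cre replicate 1 and 7 higher without ISC-Cre replicate 2 or WT replicate 2. The lower ones numbered 4 without ISC-Cre replicate 1, 2 without ISC-Cre replicate 2 and 3 without WT replicate 1. In the main fit the shares were 35.5% higher and 22.6% lower, against 19.3% and 18.5% over all genes. Cd74, the invariant chain, was at 51.8 and 31.3 CPM in ISC-Cre organoids, against 2.43 and 0.456 CPM in WT organoids (log2 fold change 4.97 ± 0.65, adjusted p = 0.00116). Ifitm3, an antiviral membrane protein, was at 729.5 and 647 CPM in ISC-Cre organoids, against 24.4 and 33 CPM in WT organoids, uncertain with 20.5% shared words. AP-1 and immediate early genes rose in 8 of 21 cases and fell in 3, and 2 rose and 1 fell without ISC-Cre replicate 1. Jun was at 448 and 279 CPM in ISC-Cre organoids and 74.9 and 185 CPM in WT organoids (log2 fold change 1.48 ± 0.40, adjusted p = 0.0233), with an adjusted p of 0.147 without that library. Zfp36, which shortens the life of such messages, fell to 36.8 and 27.6 CPM in ISC-Cre organoids, against 59 and 57.7 CPM in WT organoids (log2 fold change -0.86 ± 0.18, adjusted p = 0.00851). The shares on the AP-1 list were 38.1% higher and 14.3% lower, the latter near the 18.5% over all genes. Unfolded protein response genes rose in 1 of 25 cases and fell in 8, with 5 lower when either ISC-Cre library was left out. Hspa5, the chaperone BiP, was at 687 and 657 CPM in ISC-Cre organoids and 742 and 825 CPM in WT organoids (adjusted p = 0.195). Xbp1, its regulator in secretory cells, was at 120.4 and 119 CPM in ISC-Cre organoids, against 257 and 190.3 CPM in WT organoids (log2 fold change -0.90 ± 0.16, adjusted p = 0.00409).

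Markers of cell types other than epithelium were low in both groups. Stromal markers summed to 21.4 and 13.1 CPM in ISC-Cre organoids, against 5.91 and 6.84 CPM in WT organoids, with 5 of 8 measured members higher and 1 lower, 7 under the filter and Col3a1 among those. That count of rises was 1 without ISC-Cre replicate 1, 2 without ISC-Cre replicate 2 or WT replicate 1, and 3 without Sec-Cre replicate 1 or WT replicate 2. Pdgfra, the receptor of subepithelial fibroblasts, was at 1.13 and 1.79 CPM in ISC-Cre organoids and 0 and 0 CPM in WT organoids. Endothelial markers summed to 56.7 and 42.3 CPM in ISC-Cre organoids, against 39.8 and 18.8 CPM in WT organoids, with 3 of 8 higher and 1 lower. Cdh5, VE-cadherin, was at 26.3 and 11.6 CPM in ISC-Cre organoids, against 0 and 0 CPM in WT organoids, at least 208-fold higher, and Flt1, a VEGF receptor, at 14.1 and 13.2 CPM in ISC-Cre organoids, against 0 and 0 CPM in WT organoids, at least 147-fold higher. The defining endothelial gene Kdr had no count in any of the 4 libraries and Pecam1 had none in ISC-Cre organoids. Immune markers summed to 16.3 and 9.66 CPM in ISC-Cre organoids, against 13.3 and 11.1 CPM in WT organoids, with 7 of 17 at 0 in all 4 libraries. Of the 5 measured, 2 were higher and 1 lower, and none was called without ISC-Cre replicate 1. Neural and glial markers summed to 58 and 26.3 CPM in ISC-Cre organoids, against 19 and 25.5 CPM in WT organoids, with 2 higher and 2 lower of 6, and Sox10 at 0. Epithelial markers summed to 9341 and 8498 CPM in ISC-Cre organoids, against 13915 and 13508 CPM in WT organoids and fell in 11 of 14 cases with none higher (median log2 fold change -0.86). Epcam, the pan-epithelial adhesion molecule, was at 1168 and 1051 CPM in ISC-Cre organoids, against 1917 and 1803 CPM in WT organoids (log2 fold change -0.75 ± 0.12, adjusted p = 0.00294). Stromal sums were higher in both ISC-Cre libraries beside the rises of Vim, Fn1 and collagens described above, and their part in those results was not tested.

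The median log2 fold change over the tested genes of an autosome lay between -0.03 and 0.12, the share of genes that rose between 15.6% and 24.2%, and the share that fell between 15.8% and 21.9%. Chromosome X stood at a median of 0.12, with 22% higher and 15.2% lower. The 5 tested genes of chromosome Y had a median of -0.97, and all 5 had no count in ISC-Cre replicate 1. The 1 among them that fell was Uba1y, named after its values were seen, at 0 and 0.105 CPM in ISC-Cre organoids, against 10.3 and 11.5 CPM in WT organoids. Ribosomal RNA, read as Rn45s, took 0.305% and 0.950% of gene counts in ISC-Cre and 0.373% and 0.456% in WT libraries.

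The group most like the ISC-Cre organoids were organoids in which Apc was lost through Atoh1CreERT2, a driver of the secretory lineage (Sec-Cre, also Apcfl/fl with Rosa26tdTomato, 2 libraries). The edgeR test called 6 of the 14208 genes between them, 0.0422%, all higher in ISC-Cre, and 4 of the 6 were HoxB genes. Hoxb9 was at 95.7 and 126 CPM in ISC-Cre organoids and 0.607 and 1.09 CPM in Sec-Cre organoids (log2 fold change 7.01 ± 0.70, adjusted p = 0.0347). Hoxb7 was at 26.6 and 26.1 CPM in ISC-Cre, against 0.607 and 0.261 CPM in Sec-Cre libraries (log2 fold change 5.91 ± 0.46, adjusted p = 0.0196), and Hoxb6 at 60.2 and 56.6 CPM in ISC-Cre, against 2.57 and 1.66 CPM in Sec-Cre libraries (log2 fold change 4.79 ± 0.43, adjusted p = 0.0288). The uncertain Hoxb3 was at 28.2 and 37.1 CPM in ISC-Cre, against 3.22 and 3.18 CPM in Sec-Cre libraries. The other 3 HoxB genes measured lay in the same order but did not pass. Hoxb8 was at 63.7 and 84.1 CPM in ISC-Cre, against 1.12 and 0.871 CPM in Sec-Cre libraries (adjusted p = 0.0711). Hoxb5 was at 17.5 and 24.4 CPM in ISC-Cre, against 0.654 and 0.523 CPM in Sec-Cre libraries (adjusted p = 0.189). Hoxb4, looked up after its values were seen, was at 16.6 and 17.2 CPM in ISC-Cre, against 3.74 and 3.57 CPM in Sec-Cre libraries (adjusted p = 0.189). Of the non-Hox genes, the lectin Reg4 was at 132 and 100.3 CPM in ISC-Cre, against 24.4 and 23.8 CPM in Sec-Cre libraries (log2 fold change 2.27 ± 0.18, adjusted p = 0.0196). The uncertain Lyz1 was at 3784 and 2693 CPM in ISC-Cre, against 803 and 608 CPM in Sec-Cre libraries (log2 fold change 2.20 ± 0.21, adjusted p = 0.0288). No gene was called without ISC-Cre replicate 1 or without Sec-Cre replicate 2, and 3 genes were called without Sec-Cre replicate 1, where Hoxb9, Hoxb6, Hoxb3 and Reg4 did not pass (adjusted p = 0.0589 to 0.116). Without ISC-Cre replicate 2 the HoxB genes were not called either (adjusted p = 0.175 to 0.246), nor was Lyz1 (0.0549). With the replicate number as a block Hoxb9 and Hoxb3 did not pass (adjusted p = 0.101 for both) and the other 4 genes did. Over all these fits the log2 fold change of Hoxb9 lay between 6.66 and 7.5 and that of Hoxb7 between 5.43 and 6.62. Wnt6, Sis and the other genes of the largest rises and falls did not pass this test, which does not show that they were equal. Sec-Cre minus WT gave log2 fold changes of 15.2 for Wnt6, 13.1 for Wnt10a and 13.5 for Irx5 in that fit. It gave -8.29 for Sis, -9.94 for Apoa1 and -8.21 for Alpi. Each of these genes passed that comparison at the 0.05 threshold. Their changes against WT were therefore not particular to the ISC-Cre organoids. Lgr5 was at 137 and 310 CPM in Sec-Cre organoids, against 116 and 88.2 CPM in ISC-Cre organoids, and did not pass between them (adjusted p = 0.984). For Lgr5, Sec-Cre minus WT had a log2 fold change of -0.14 (adjusted p = 0.778). Whether the driver allele lowered Lgr5 was not tested.

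**Figure D5:**
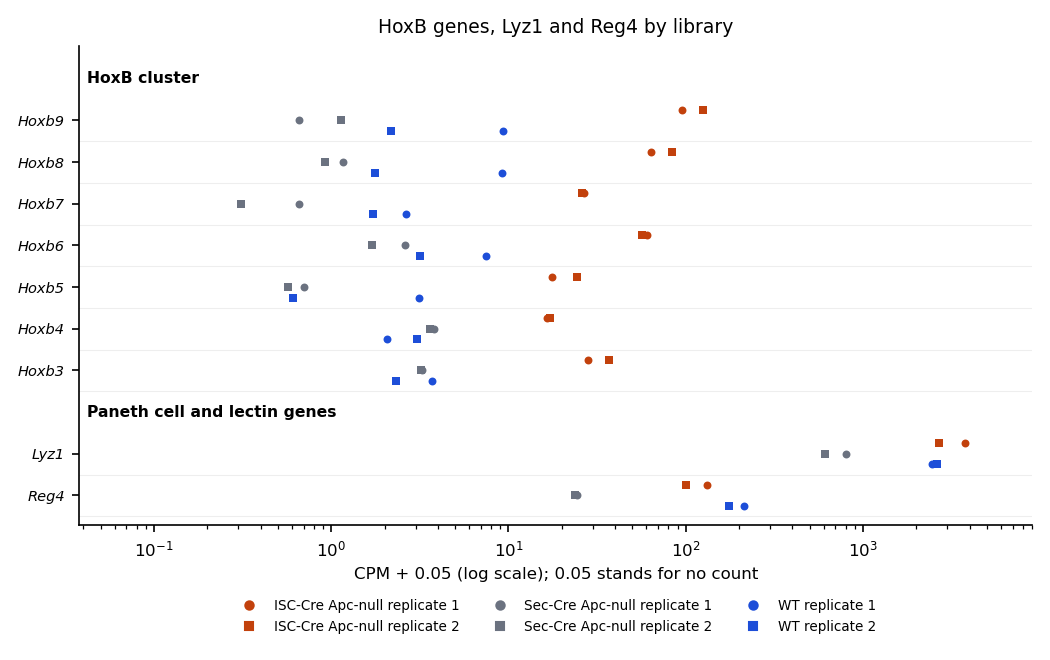
CPM (plus 0.05, log axis) of 7 HoxB genes, Lyz1 and Reg4 in each organoid library, with ISC-Cre Apc-null above Sec-Cre Apc-null and WT. The HoxB genes lie to the right in both ISC-Cre libraries, and Reg4 in ISC-Cre lies between Sec-Cre and WT.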

How the data were processed

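The authors deposited raw read counts per gene, 1 table per library, with unstranded counts and those of each strand. Per the submitters' processing notes STAR, DESeq2 1.22.2 and mm10 were used, and the tables have the layout of STAR gene counts. The sources used here do not name the gene annotation. Per the labels' protocols the kit was non-directional, so the both-strand column was used, and the strands are not told apart. The second strand held 48.4% to 49.9% of gene reads. Summary lines stayed out of library sizes (2.58% to 4.08% unmapped and 4.82% to 6.57% multimapping reads).

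Counts of the 6 organoid libraries (2 each of ISC-Cre, Sec-Cre and WT) were fitted together in R 4.3.3 with edgeR 4.0.16: filterByExpr (minimum count 10), TMM scaling, glmQLFit and glmQLFTest, with 3 residual degrees of freedom and a biological coefficient of variation of 0.217. Genes were called at an adjusted p under 0.05 (Benjamini-Hochberg). Standard errors came from the quasi-likelihood F statistic, and the prior count was 0.125. Where a group had no count, the fold is a lower bound against 3 counts over that group, and a ratio against 1 to 3 counts carries an exact 95% interval. GENCODE vM21 (GRCm38) held the symbols of 94.6% of genes. Genes sharing over 20% of their 31-base words with other genes are called uncertain. The code was tested on simulated data. Chi-square per degree of freedom between replicates was 18.0 to 43.7, above sampling noise, and each library counted as 1 sample.

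The comparison, the 50 gene lists, the motifs and the genes they name were chosen with earlier results of these data known. The rule allowed the targeted genes, the 10 largest rises and falls, fixed key members of each list and up to 4 further called members per list, genes called between the drivers, and sex-linked genes. Not every gene it allowed is printed. Alternatives were RLE size factors, no filter, DESeq2 1.42.0, a fit of the compared groups alone, a replicate block and leaving out each library.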

Additional observations from a re-analysis of the deposited data

Results flagged for a closer look

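Genes whose level differed between the ISC-Cre and Sec-Cre drivers of Apc loss, by the edgeR test of that difference, were listed for a closer look. There were 6. The log2 fold change of ISC-Cre minus Sec-Cre organoids was 7.01 ± 0.70 for Hoxb9, 5.91 ± 0.46 for Hoxb7, 4.79 ± 0.43 for Hoxb6 and 3.35 ± 0.32 for Hoxb3, with adjusted p of 0.0347, 0.0196, 0.0288 and 0.0288. It was 2.27 ± 0.18 for Reg4 (adjusted p = 0.0196) and 2.20 ± 0.21 for Lyz1 (adjusted p = 0.0288). Hoxb3 and Lyz1 are uncertain through shared words. Both ISC-Cre libraries lay above both Sec-Cre libraries for each gene. In the same fit, Sec-Cre organoids were lower than WT organoids for Hoxb9 (log2 fold change -2.68, adjusted p = 0.0227) and Hoxb7 (-2.27, adjusted p = 0.0088). Hoxb6 did not pass there (-1.29, adjusted p = 0.0506). For Lyz1 both Sec-Cre libraries lay below both WT libraries. Against WT organoids, the HoxB genes rose in ISC-Cre organoids, Reg4 fell (-0.74 ± 0.17, adjusted p = 0.0127, or 0.076 without ISC-Cre replicate 2) and Lyz1 did not pass the test. ISC-Cre replicate 2, which lacked the female pattern of replicate 1, had Hoxb6 at 56.6 CPM and Hoxb7 at 26.1 CPM, against 60.2 and 26.6 CPM in replicate 1. Without ISC-Cre replicate 1 or Sec-Cre replicate 2 none of the 6 passed.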

How the results depend on the processing

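Y-linked genes aside, of 212 genes named with a fold change or level, 183 were called, and 177 of these kept direction and call under all alternatives that gave a value. The others were Apc, Ctnnb1, Lgr5, Ascl2, Jun and Reg4. Ephb2, Mycn and Gkn3 were not among the 212 genes. The count of 5377 changed genes was within 1.5 times under RLE size factors (5390), no filter (5567), DESeq2 (5996), the compared groups alone (4452) and the replicate block (4723). With single libraries left out it ranged from 3194 (without ISC-Cre replicate 1) to 5542, with 1622 to 2866 genes higher and 1572 to 2676 lower, and no gene changed direction among those called in both. The cause was not tested, but such fits hold fewer libraries. Calls against Sec-Cre numbered 6, and were 24 without a filter, 11 in the compared groups alone and 72 by DESeq2, and ranged from 0 to 9 with single libraries left out. An unadjusted p under 0.05 was reached by 6700 genes in ISC-Cre against WT.

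Same-numbered replicates did not deviate together (correlation -0.098 for ISC-Cre with WT). The replicate block gave 4723 calls against WT, Apc not among them, and 4 against Sec-Cre. Among 100 list counts, 51 stayed within 1.5 times under every alternative. Of 29 genes among the 212 that did not pass the test, 13 passed under at least 1 alternative. Neurog3 passed under 6, Ang4, Hes1, Hk2 and Mki67 under 3 each, Mcm2 under 2, and Cdkn1a, Ephb3, Fzd7, Notch1, Slc2a1, Sox9 and Wnt11 under 1 each. Log2 fold changes turned sign for 8 genes that had not passed. With single libraries left out they ranged from -0.33 to 0.73 for Cdkn1a, -0.0038 to 0.28 for Egfr, -0.37 to 0.49 for Ephb3, -0.22 to 0.084 for Lgr4, -0.18 to 0.016 for Lrp6, -0.36 to 0.037 for Ndufa4, -0.12 to 0.16 for Top2a and -0.0029 to 0.31 for Wnt3. Ephb3 also stood at 0.015 with RLE size factors, 0.026 with the replicate block, 0.016 in the compared groups alone and 0.016 by DESeq2. With 2 libraries a group and 13631423 to 21306261 counts in the ISC-Cre and WT libraries, small changes and low genes were not resolved, and 9846 genes were not tested.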
